A study of Mus musculus with 6 samples.

Results

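Coagulation and fibrinolysis genes were examined in the livers of fasted mice with and without CREBH, a membrane-bound transcription factor of hepatocytes encoded by Creb3l3. The set holds 32 genes chosen by name from 55536 annotated genes: coagulation factors, fibrinogen chains, anticoagulants, the vitamin K cycle and fibrinolysis, with the serpin inhibitors left out. Each of the 32 symbols matched 1 gene identifier in the count files. RNA sequencing covered 3 liver libraries labelled WT and 3 labelled CREBH-K.O (written CREBH-KO here), all from mice fasted for 14 h. The labels give no sex, age or strain and do not say which part of Creb3l3 is missing or whether the loss is limited to the liver. The 3 samples of a genotype are described as independent, but not as coming from 3 separate mice, so p-values measure the spread between these samples.

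Most plasma clotting proteins are made by hepatocytes and secreted. Tissue factor and factor VII start clotting, factors X and V form the complex that turns prothrombin into thrombin, and thrombin cuts fibrinogen into fibrin, which factor XIII cross-links. The protein C and protein Z systems and tissue factor pathway inhibitor restrain these steps, and plasmin dissolves the clot. Several of these proteins need gamma-carboxylation, a vitamin K-dependent modification made in the endoplasmic reticulum. Others, such as factor VIII, von Willebrand factor and thrombomodulin, come mainly from endothelium.

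Proz, which encodes protein Z, was the 1 member that passed the test of genotype, and it was lower in CREBH-KO. It is the last of 3 members that lie in a row on the plus strand of chromosome 8 (GRCm38): F7 from 13026034 to 13035809, F10 from 13037308 to 13056676 and Proz from 13060914 to 13076026. F7 ends 1498 bases before F10 begins, and F10 ends 4237 bases before Proz begins. The 250 bases upstream of the RefSeq start of each are shown because the first 2 genes of the row did not pass the test and the third did. They are joined by the same stretch of Cpb2, the 1 member whose upstream window holds a full cAMP response element, the palindrome that CREB-type factors bind. All windows are RefSeq sequence of build GRCm38.p6, written 5′ to 3′ on the plus strand, the strand of each gene. Capitals mark the CCACG match in Proz and the TGACGTCA match in Cpb2.
Proz (chr8:13060658-13060907): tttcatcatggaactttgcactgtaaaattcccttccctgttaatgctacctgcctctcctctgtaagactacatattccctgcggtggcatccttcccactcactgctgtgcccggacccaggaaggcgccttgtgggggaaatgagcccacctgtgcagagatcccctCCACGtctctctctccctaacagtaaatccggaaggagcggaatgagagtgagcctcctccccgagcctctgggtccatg
F10 (chr8:13037058-13037307): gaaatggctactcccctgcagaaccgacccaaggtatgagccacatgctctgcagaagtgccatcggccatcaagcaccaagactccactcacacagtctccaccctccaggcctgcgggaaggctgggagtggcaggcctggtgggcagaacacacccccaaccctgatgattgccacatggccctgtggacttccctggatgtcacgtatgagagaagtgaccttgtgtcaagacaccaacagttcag
F7 (chr8:13025784-13026033): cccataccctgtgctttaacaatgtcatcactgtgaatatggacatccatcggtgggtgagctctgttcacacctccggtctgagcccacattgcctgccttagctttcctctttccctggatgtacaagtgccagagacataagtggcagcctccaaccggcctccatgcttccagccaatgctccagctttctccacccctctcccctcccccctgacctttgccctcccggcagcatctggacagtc
Cpb2 (chr14:75242037-75242286): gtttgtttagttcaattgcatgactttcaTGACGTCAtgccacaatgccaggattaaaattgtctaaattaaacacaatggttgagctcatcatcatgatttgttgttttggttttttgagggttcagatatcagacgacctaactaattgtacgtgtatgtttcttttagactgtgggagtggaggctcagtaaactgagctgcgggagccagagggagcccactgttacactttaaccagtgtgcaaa

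Upstream windows were found for 25 of the 32 members, and 5 motifs are described, each searched on both strands. CCACG, a part of the stress response element, occurred in 5 of the 25 members (Ggcx, Klkb1, Proz, Tfpi and Vkorc1) and in 28.3% of all 32851 windows of this length. In Proz it lay 80 to 76 bases before the start. The other members with CCACG, Ggcx, Klkb1, Tfpi and Vkorc1, did not pass the test of genotype. TGACG, the core of the cAMP response element and contained in TGACGTCA, occurred in 5 members (Cpb2, F13a1, F2, F9 and Procr) and in 17.8% of all windows. TGACGTCA occurred in Cpb2 and in 1.55% of all windows, and CTGGGAA, an interleukin-6 response sequence, in Adamts13, F9, Fgb, Fgg and Tfpi and in 9.10% of all windows. The HNF4 direct repeat was found in none of the members' windows and in 0.0609% of all windows. None of the 5 motifs was found in the windows of F7 and F10. These matches describe letters in a window and not binding.

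The libraries held 28106243 to 39288819 reads counted in genes. Levels are given as normalised CPM (read counts scaled to a common library total with TMM factors) and, where genes are compared with each other, as CPM per kb of exon. Fold changes are log2 values of CREBH-KO minus WT with a standard error (SE), tested with edgeR's quasi-likelihood test and taken as changed where the p adjusted by Benjamini-Hochberg over all 15589 tested genes was under 0.05. Creb3l3 measured 467, 496 and 495 CPM in WT and 57.4, 45.0 and 46.4 CPM in CREBH-KO, which matches the labels of all 6 libraries (log2 fold change -3.29 ± 0.11, edgeR adjusted p = 3.00e-06). Hepatocyte markers such as Alb summed to 63594 to 76045 CPM in WT and to 71048 to 77094 CPM in CREBH-KO. For 2 libraries, CREBH-KO 2 and 3, a file of first reads is recorded as lost, and it is not stated from which reads their counts come.

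The 32 genes together summed to 18047 to 21603 CPM in a library. The means were 19369 ± 1171 CPM in WT and 20103 ± 1793 CPM in CREBH-KO (SD, n = 3 each, exact permutation test, two-sided p = 0.5). With 3 libraries against 3 that test cannot give a p below 0.1. Per kb of exon, the fibrinogen chains Fgg (1083 ± 55.3), Fga (1082 ± 118) and Fgb (828 ± 46.4) stood highest in WT. The kininogen gene Kng1, Hrg, plasminogen (Plg), prothrombin (F2) and F12 followed at 341 to 577 CPM per kb. At the other end the endothelial genes F8, Thbd, Tfpi, Vwf, Procr and Plat lay between 0.0569 and 0.747 CPM per kb. The first 4 genes had the same order in both genotypes, and the largest shift of rank was 2 places, in Hrg, Proz and Plau.

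**Figure D1:**
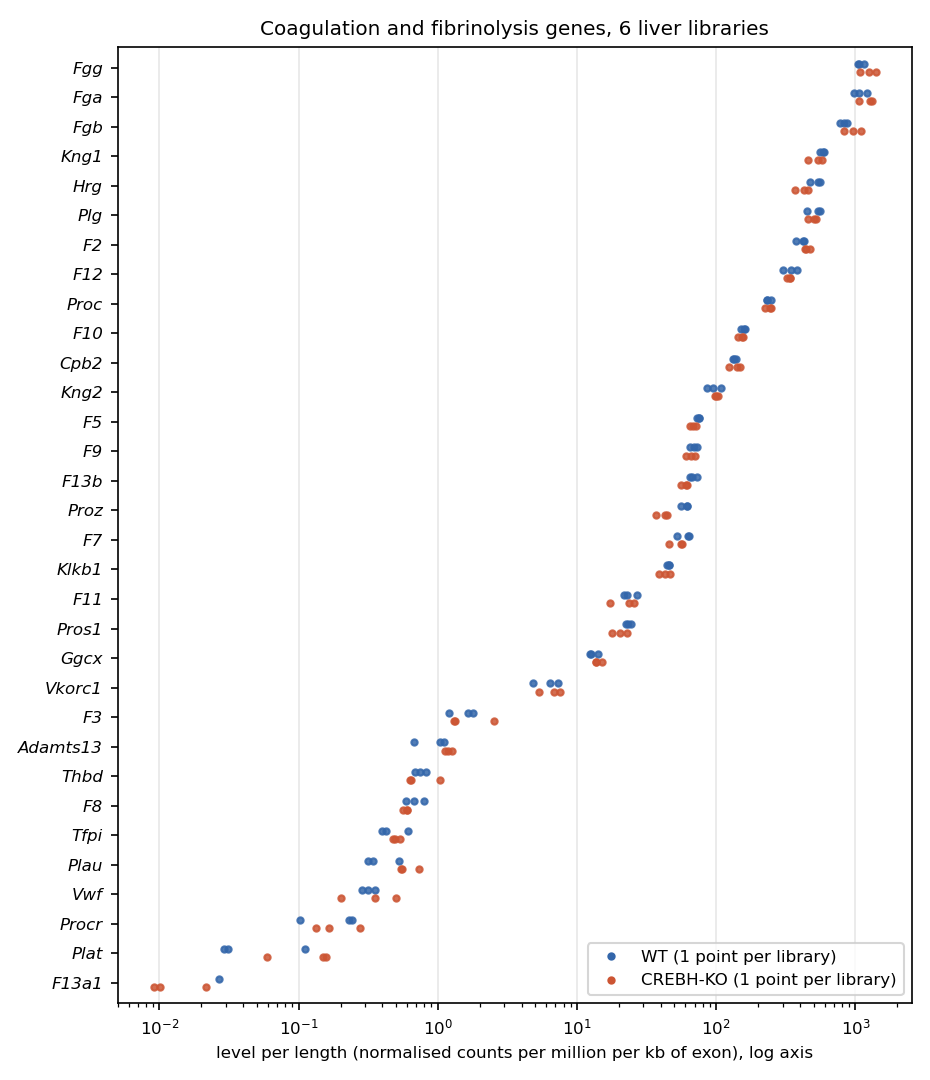
Level of each of the 32 genes in CPM per kb of exon (log axis), with 1 point per library; libraries with 0 counts are not drawn (F13a1 in WT 2 and WT 3). The fibrinogen genes stood highest, and the mean levels of the clotting genes of endothelium lay between 0.0569 and 0.747 in WT.

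Of the 32 genes, 31 passed the filter on low counts, and F13a1 did not. Among those tested none rose, 1 fell and 30 did not pass, where 10.4% of all tested genes were called changed, 3.91% upwards and 6.46% downwards. These are 609 genes called higher and 1007 called lower, a split that became 813 and 726 when libraries were scaled by library size alone. At an unadjusted p under 0.05 there were 3 members, Proz, Hrg and F13b, or 9.68% of those tested against 25.2% of all tested genes. DESeq2 called 2 members, Proz and Hrg. The median log2 fold change of the members was 0.025 and that of all tested genes 0.025. Groups did not overlap for F2, Adamts13 and Plau, which were higher in each CREBH-KO library, and for F5, F13b, Proz and Hrg, which were lower in each. Of all tested genes, 15% had every CREBH-KO library higher and 15.7% every one lower. Of the 18 members of at least 100 CPM in WT, 1 was higher and 4 were lower in every CREBH-KO library. Among all tested genes of that level these shares were 12.5% and 36.8%.

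How closely the members were measured set what could be seen. The 95% interval of the fold change lay wholly inside 1.5-fold in either direction for 22 of 31 members, against 44.1% of all tested genes. It lay inside 2-fold for 28 of 31, and the exceptions were Procr, Plau and Plat. For the 18 members of at least 100 CPM in WT the SE was 0.077 to 0.12. Of these, 17 had an interval inside 1.5-fold and 1 was called, against 72.5% and 25.0% of all tested genes of that level. For the 10 tested members under 10 CPM it was 0.16 to 0.60, and the interval of 2 of the 10 lay inside 1.5-fold.

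**Figure D2:**
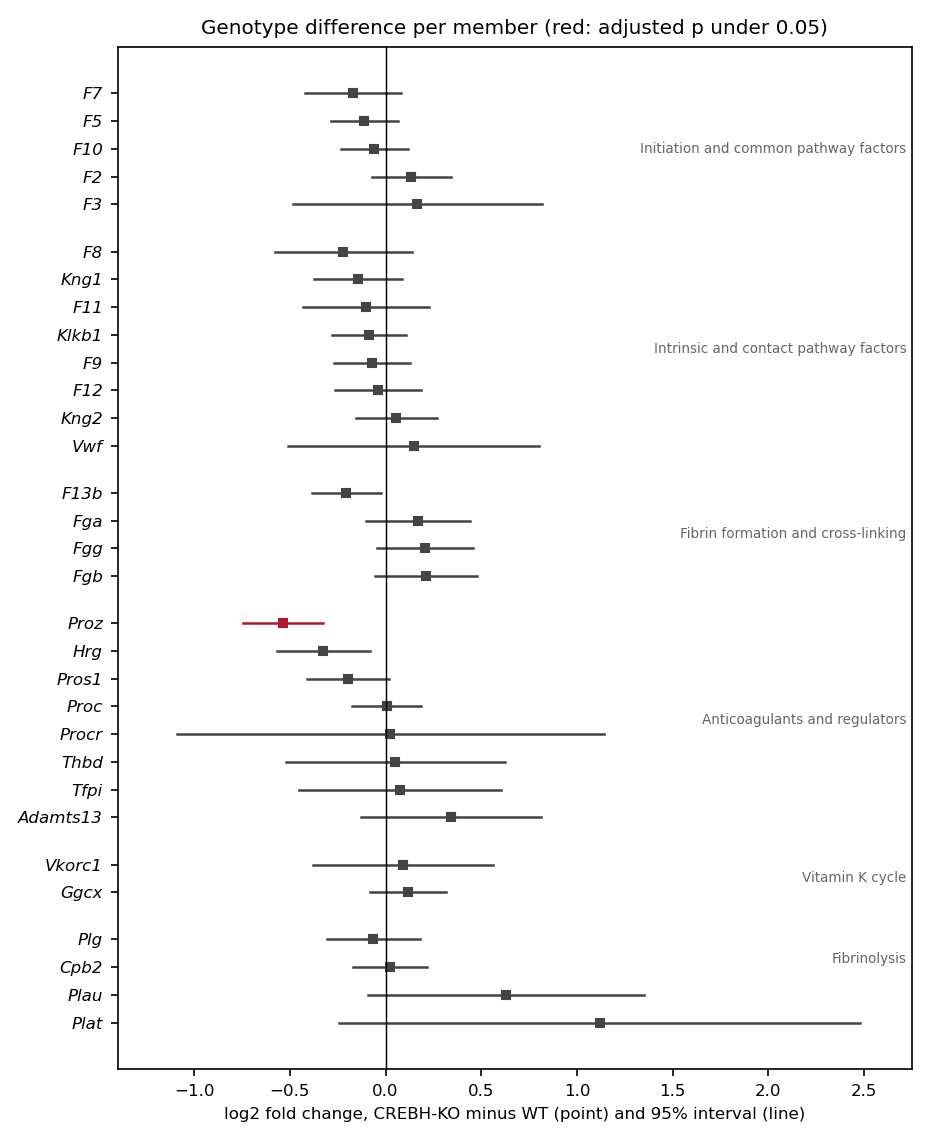
Log2 fold change of each tested member (CREBH-KO minus WT, square) with its 95% interval (line), grouped by role; red marks an adjusted p under 0.05. Proz is red at -0.54, and the intervals of F13b and Hrg also lie below 0 without passing the adjusted threshold.

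Protein Z is a vitamin K-dependent plasma protein that serves as cofactor of the serpin ZPI in the inhibition of factor Xa. Proz measured 312, 342 and 343 CPM in WT 1, 2 and 3 and 246, 205 and 237 CPM in CREBH-KO 1, 2 and 3. Every CREBH-KO library was below every WT library, and CREBH-KO 2 was the lowest. The mean fell from 333 ± 17.7 to 229 ± 21.5 CPM (SD, n = 3 each), a log2 fold change of -0.54 ± 0.09 (SE, edgeR adjusted p = 0.00757), or to 0.69 of the WT level (95% interval 0.60 to 0.80). Of the 1616 genes called in the same fit, 66.1% changed by more than Proz. The call remained without any 1 of the 6 libraries (adjusted p of 0.00616 to 0.0444) and was lost when CREBH-KO 1 alone was set against WT, a fit that assumes that this library varies like the WT libraries and in which the log2 fold change was -0.46 (adjusted p = 0.168). No window of 50 bases of its transcripts occurred in another gene, and its exons overlapped none.

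The 2 genes upstream of Proz did not pass. F7, which encodes the protease that binds tissue factor, measured 96.5, 116 and 119 CPM in WT and 104, 85.6 and 105 CPM in CREBH-KO (log2 fold change -0.17 ± 0.11, edgeR adjusted p = 0.377). F10, which encodes the protease that protein Z and ZPI act on, measured 410.3, 436 and 436 CPM in WT and 419, 390.0 and 422 CPM in CREBH-KO (-0.06 ± 0.08, edgeR adjusted p = 0.688). The groups overlapped for both. Within a library, where no scaling enters, the ratio of Proz to F10 counts was 0.761, 0.784 and 0.788 in WT and 0.587, 0.526 and 0.561 in CREBH-KO. This ratio was lower in every CREBH-KO library, while the ratio of F7 to F10 overlapped between the groups (0.258 ± 0.0204 and 0.239 ± 0.0166, SD, n = 3 each). The exact permutation test gave a two-sided p of 0.1 for Proz over F10 (0.16 adjusted over 16 ratios), which is the smallest it allows, and 0.3 for F7 over F10. In a window of 100 kb around Proz, chosen after the values were seen and set by Proz itself, 8 annotated genes were tested. Proz was the 1 called, where 10.4% of all tested genes were. Of the other tested genes in the window, Pcid2 was at 0.06 and Gm17022 at 0.81 (adjusted p = 0.241), while Cul4a (-0.24, adjusted p = 0.0595), Lamp1 (-0.25, adjusted p = 0.0879) and Grtp1 (-0.42, adjusted p = 0.0866) had negative values and did not pass by edgeR's test. As for Proz, every CREBH-KO library was below every WT library for Cul4a and Lamp1. Of all tested genes of at least 100 CPM in WT, 36.8% had this pattern. Groups overlapped for Pcid2, Gm17022 and Grtp1.

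**Figure D3:**
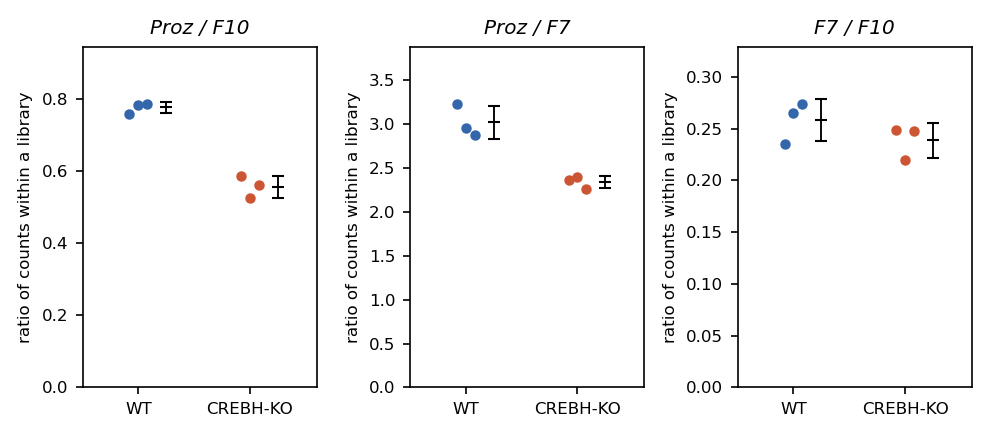
Ratio of counts within each library for Proz over F10, Proz over F7 and F7 over F10, 3 neighbouring genes; points are libraries, and the black marks give mean and SD. The CREBH-KO libraries lie below all WT libraries for Proz over F10 and Proz over F7 and overlap them for F7 over F10.

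Protein Z belongs to the vitamin K-dependent clotting proteins, whose genes here are F2, F7, F9, F10, Proc, Pros1 and Proz. The 6 genes other than Proz had log2 fold changes of -0.20 to 0.13, none passed, and the interval of each lay inside 1.5-fold. The ratio of Proz counts to those of each of these 6 genes did not overlap between the genotypes and was lower in CREBH-KO. The exact permutation p was 0.1 each (0.16 adjusted over 16 ratios). These 6 ratios share the Proz counts and were chosen after the values were seen, so they are not independent of the call of Proz. F2, for prothrombin, measured 1728, 1933 and 1961 CPM in WT and 2017, 2000.4 and 2152 CPM in CREBH-KO (0.13 ± 0.09, edgeR adjusted p = 0.406). F9, for the protease missing in haemophilia B, was at -0.07 ± 0.09, and Proc, for the anticoagulant protease protein C, at 0.01 ± 0.08. Pros1, for the cofactor of activated protein C, measured 94.9, 92.4 and 99.1 CPM in WT and 93.0, 83.4 and 73.5 CPM in CREBH-KO. CREBH-KO 1 lay inside the WT range (-0.20 ± 0.10, edgeR adjusted p = 0.242).

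The enzymes of the vitamin K cycle themselves did not pass. Ggcx, the gamma-carboxylase, had 42.3 ± 3.04 CPM in WT and 45.9 ± 3.00 CPM in CREBH-KO (0.12 ± 0.09). Vkorc1, the epoxide reductase that warfarin blocks, had 5.17 ± 1.03 and 5.51 ± 0.965 CPM (0.09 ± 0.21, SD for levels, SE for the change, n = 3). Of the exonic bases of Vkorc1, 47.7% are shared with the same-strand gene Gm21974. Its counts may therefore cover only part of the gene and its level may be too low. A further list of 8 genes for vitamin K handling and for the secretion of clotting factors held 4 that fell and none that rose, where 6.46% of all tested genes fell. Among all tested genes of at least 100 CPM in WT, a level that Lman1 and Furin reached, 302 of 1443 fell. This list, like the other lists below, was chosen with earlier results of these data known. Shares called in these lists are therefore not independent of these data. Vkorc1l1, a relative of Vkorc1, fell by 0.46 ± 0.08 on the log2 scale, and Aifm2, a reductase that can act on vitamin K, by 0.47 ± 0.09. Lman1, the cargo receptor that carries factors V and VIII out of the endoplasmic reticulum, fell by 0.41 ± 0.07, while its partner Mcfd2 was at 0.08 ± 0.09. Furin, which removes propeptides from clotting factors, fell by 0.47 ± 0.12 (edgeR adjusted p for the 4 genes 0.00871 to 0.0374). The call of Furin was lost with scaling by library size alone and without any 1 library except WT 1, that of Lman1 without WT 2, and that of Aifm2 without WT 2 or CREBH-KO 3.

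The 3 fibrinogen genes lie together on chromosome 3 (Fgg, Fga and Fgb, with gaps of 11026 and 6513 bases) and encode the gamma, alpha and beta chains of 1 protein. Fga measured 2954, 3649 and 3167 CPM in WT and 3958, 3204 and 3825 CPM in CREBH-KO. Fgb measured 2967, 3319 and 3179 CPM in WT and 4152, 3156 and 3649.95 CPM in CREBH-KO. Fgg measured 2171, 2396 and 2235 CPM in WT and 2936, 2273 and 2637 CPM in CREBH-KO. In each gene CREBH-KO 1 and 3 were above all WT libraries and CREBH-KO 2 was inside the WT range, so the groups overlapped. The log2 fold changes were 0.17 ± 0.12, 0.21 ± 0.12 and 0.21 ± 0.11 (edgeR adjusted p of 0.292 to 0.426). Within a library, the ratio of Fgg to Fgb counts was 0.719 ± 0.0147 in WT and 0.717 ± 0.00837 in CREBH-KO, and that of Fga to Fgb 1.03 ± 0.0600 and 1.01 ± 0.0482 (exact permutation p of 0.9 and 0.7, n = 3 each), and the groups overlapped. As a share of the summed level of all 32 genes, the 3 chains made up 44.8%, 46.2% and 43.4% in WT and 51.1%, 47.7% and 49.1% in CREBH-KO. This share was higher in every CREBH-KO library (exact permutation p = 0.1, the smallest that test allows). It also depends on the levels of the other members. The summed level of the 3 chains itself overlapped between the groups (exact permutation p = 0.2).

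Fibrinogen is an acute phase protein, and a list of 16 other acute phase genes was read beside it. Of these, 5 rose and 1 fell, where 3.91% and 6.46% of all tested genes did, with a median log2 fold change of 0.28. Hp, for haptoglobin, rose by 0.82 ± 0.13 and Itih3, an inter-alpha-trypsin inhibitor chain, by 0.58 ± 0.09, while Orm3 fell by 2.65 ± 0.43 (edgeR adjusted p of 0.00466 to 0.00594). Of the 10 that did not pass, Saa1 was at 0.25 ± 0.36, Saa2 at -0.04 ± 0.33, Saa3 at 0.83 ± 0.26 and Lcn2 at 0.38 ± 0.57. Orm1, also not called, was at -0.20 ± 0.11 and Crp, for C-reactive protein, at -0.09 ± 0.12. Sequence that Orm3 may share with related genes was not measured.

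The other genes of fibrin cross-linking are those of factor XIII. F13b, its carrier subunit made by hepatocytes, measured 169, 185 and 165 CPM in WT and 153, 141 and 155 CPM in CREBH-KO. All CREBH-KO libraries were lower (-0.21 ± 0.08, 95% interval -0.39 to -0.02), but the adjusted p was 0.146 by edgeR. F13a1, the catalytic subunit of macrophages and platelets, had 7, 0 and 0 counts in WT and 5, 2 and 2 counts in CREBH-KO, too few to test. Summed macrophage markers (10 genes, none called) overlapped between the groups at 83.9 to 185 CPM in WT and 95.6 to 117 CPM in CREBH-KO.

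The genes of the contact and intrinsic pathways did not pass, and the log2 fold changes of all 8 lay between -0.22 and 0.15. F12 and Klkb1, for factor XII and plasma prekallikrein, were at -0.04 ± 0.10 and -0.09 ± 0.09. F11, which lies 4.66 kb from Klkb1 on chromosome 8, was at -0.10 ± 0.15. Kng1 and Kng2, the kininogen genes, were at -0.14 ± 0.10 and 0.06 ± 0.09. The kininogen values are uncertain, since 17.2% of the 50-base windows of Kng1 transcripts also occurred in another gene, mostly Kng2. Klkb1 and Vkorc1 share 43.2% and 47.7% of their exonic bases with a same-strand gene (Gm45753 and Gm21974) that had 0 counts in every library. Their counts, and so their levels in CPM and per kb, may therefore be too low. F5, the cofactor of factor Xa, measured 537, 557 and 558 CPM in WT and 484, 509.8 and 536 CPM in CREBH-KO. Its CREBH-KO libraries were all lower by a small margin (-0.11 ± 0.08, edgeR adjusted p = 0.416). F3, for tissue factor, had 3.89 ± 0.762 and 4.37 ± 1.77 CPM (SD, n = 3 each).

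Hrg, histidine-rich glycoprotein, binds plasminogen, heparin and fibrinogen and lies 24.2 kb from Kng2 on chromosome 16. It measured 944, 1076 and 1111 CPM in WT and 916, 734 and 851 CPM in CREBH-KO. All CREBH-KO libraries were lower, CREBH-KO 1 by the least (-0.32 ± 0.11, 95% interval -0.57 to -0.08, edgeR adjusted p = 0.0947). Hrg passed in DESeq2 (adjusted p = 0.0302), with no filter on low counts (0.0193) and without WT 1 (0.0437). Within a library the ratio of Hrg to Kng1 counts was 0.556 ± 0.0327 in WT and 0.491 ± 0.00312 in CREBH-KO (n = 3 each). It was lower in each CREBH-KO library (exact permutation p = 0.1, 0.16 adjusted over 16 ratios).

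Genes that are expressed mainly by endothelium were scarce in these liver libraries. F8 and Vwf, for factor VIII and the von Willebrand factor that carries it, had 6.80 ± 0.999 and 5.10 ± 0.574 CPM in WT and 5.83 ± 0.218 and 5.64 ± 2.39 CPM in CREBH-KO. The log2 fold changes were -0.22 ± 0.16 for F8 and 0.15 ± 0.29 for Vwf. Thbd, Procr and Tfpi, for thrombomodulin, the protein C receptor and tissue factor pathway inhibitor, were at 0.05 ± 0.25, 0.03 ± 0.49 and 0.07 ± 0.23 (SE, n = 3). The interval of Procr reached from 0.47-fold to 2.20-fold. The 6 endothelial members summed to 18.0 ± 2.44 CPM in WT and 18.2 ± 3.80 CPM in CREBH-KO. Endothelial markers (12 genes, none called) summed to 176 to 252 CPM in WT and 209 to 233 CPM in CREBH-KO, and the groups overlapped. In such whole-liver RNA, fewer cells of a type and less RNA per cell cannot be told apart. Platelet markers (9 genes) summed to 10.7 ± 2.58 CPM in WT and 12.5 ± 2.15 CPM in CREBH-KO (SD, n = 3 each), and Gp1bb was at 0 in all 6 libraries. Of 10 stellate cell markers 2 rose, where 3.91% of all tested genes did. The 10 summed higher in every CREBH-KO library (324 to 358 CPM against 244 to 295 CPM, exact permutation p = 0.1), and their part in these results was not tested. Adamts13, the protease that trims von Willebrand factor and is made by stellate cells, measured 3.31, 5.41 and 5.14 CPM in WT and 5.50, 6.25 and 5.78 CPM in CREBH-KO. The CREBH-KO libraries were all higher, WT 1 was low, and the difference did not pass (0.34 ± 0.21, edgeR adjusted p = 0.348).

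Fibrinolysis genes did not pass. Plg, for plasminogen, measured 1678, 1983 and 2077 CPM in WT and 1930.1, 1689.8 and 1872 CPM in CREBH-KO, and the groups overlapped (-0.06 ± 0.11). Of its exonic bases 11.3% lie within Slc22a3 on the opposite strand, and the strand setting of the counting is not known. Cpb2, for the fibrinolysis inhibitor TAFI, was at 0.02 ± 0.09, with a 95% interval of 0.89-fold to 1.16-fold. Its upstream window is the one with TGACGTCA shown above. The plasminogen activator genes were both near the limit of detection. Plau, for urokinase, measured 0.750, 0.814 and 1.24 CPM in WT and 1.32, 1.72 and 1.29 CPM in CREBH-KO, with every CREBH-KO library higher (0.63 ± 0.32, edgeR adjusted p = 0.260). Plat, for tissue plasminogen activator, measured 0.181, 0.688 and 0.195 CPM in WT and 0.937, 0.372 and 0.979 CPM in CREBH-KO. Its groups overlapped, and the interval ran from 0.85-fold to 5.57-fold (a log2 SE of 0.60, edgeR adjusted p = 0.289). Without WT 2, the highest WT library, the log2 fold change of Plat was 2.00 (adjusted p = 0.119), and with any other library left out it was 0.77 to 1.44.

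**Figure D4:**
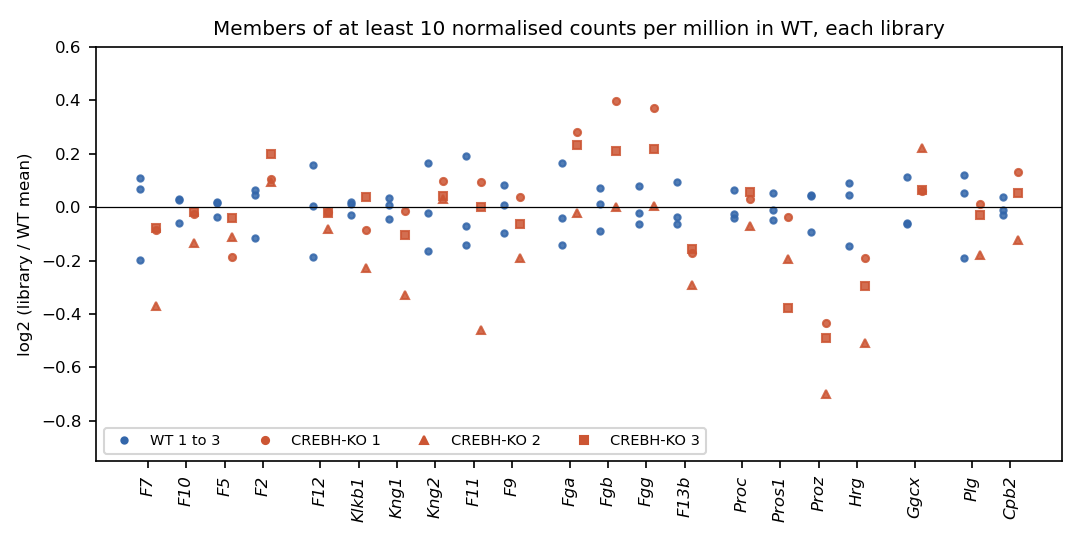
Level of the 21 members of at least 10 CPM in WT in each library, as log2 of the library's CPM over the WT mean. Proz lies below all WT libraries in the 3 CREBH-KO libraries, and the triangles of CREBH-KO 2 are the lowest points for 11 of the 21 genes.

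CREBH-KO 2 was the lowest of the 6 libraries for 11 of these 21 genes and WT 1 for 8, against 21.6% and 14.0% of all tested genes of that level. WT 3 was the highest for 10 of the 21, against 19.7% of all tested genes of that level. The TMM factor of CREBH-KO 2 (1.05) was the highest of the 6. The part of these libraries in the results was not tested beyond leaving each out.

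Serpins and other regulators of clotting lie outside the 32 genes. Of 7 tested serpin inhibitors, Serpine2, protease nexin-1, rose (1.02 ± 0.24) and 6 did not pass. Serpinc1, for antithrombin, was at 0.19 ± 0.08, and Serpina10, which encodes the partner ZPI of protein Z, at -0.02 ± 0.08. The ratio of Proz to Serpina10 counts was 2.48 ± 0.288 in WT and 1.72 ± 0.115 in CREBH-KO (SD, n = 3 each). It was lower in every CREBH-KO library (exact permutation p = 0.1, 0.16 adjusted over 16 ratios). Of 16 other regulators tested, Thbs1 (2.21) and Vtn, for vitronectin (0.40), rose and Gas6, a relative of protein S, fell (-0.43). Of 7 tested receptors, Asgr2, a subunit of the asialoglycoprotein receptor, fell (-0.48). Thrombin receptor genes such as F2r (-0.42 ± 0.17, edgeR adjusted p = 0.160) and F2rl2 (-1.58 ± 0.44, edgeR adjusted p = 0.0506, 0.716 CPM in WT) did not pass. All 7 receptors had negative values, and 5 were lower in every CREBH-KO library, where 15.7% of all tested genes were. Of these 5, Asgr1 and Asgr2 had at least 100 CPM in WT, a level at which that share was 36.8%. F2rl1 and F2rl2 had 0.514 and 0.716 CPM in WT. Over the 4 lists together, secretion genes included, 3 of 38 tested genes rose and 6 fell, or 23.7% called against 10.4% of all tested genes. Many of the 38 had at least 100 CPM in WT, and 25.0% of all tested genes of that level were called. The higher share in the lists is therefore not read as an excess. The lists were chosen with earlier results of these data known, so the share called in them is not independent of the data. The calls of Serpine2, Vtn, Thbs1, Gas6 and Asgr2 were each lost without at least 2 of the 6 libraries left out in turn (adjusted p up to 0.319 over all alternatives). With all 6 libraries, that of Gas6 was also lost with scaling by library size alone and with upper-quartile factors, and that of Serpine2 in the robust fit of edgeR.

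Of 12 liver transcription factor genes whose products act on clotting gene promoters, 3 fell and none rose, where 6.46% of all tested genes fell and 3.91% rose. Among all tested genes of at least 100 CPM in WT, a level that Cebpa reached, 302 of 1443 fell. Cebpa, a factor of hepatocyte metabolism, fell by 0.67 ± 0.10, the nuclear receptor gene Nr1i3 by 0.73 ± 0.14 and Foxa1 by 0.42 ± 0.11 on the log2 scale (edgeR adjusted p of 0.00390 to 0.0455). Hnf4a was at -0.04 ± 0.11 and did not pass. The call of Foxa1 was lost with scaling by library size alone, with upper-quartile factors and without any 1 library except WT 1. With CREBH-KO 1 alone against WT, none of the called genes named from these further lists passed, the acute phase genes, secretion genes and transcription factor genes included.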

How the data were processed

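Total RNA of 6 liver samples from fasted mice was sequenced as paired-end reads, per the labels' protocols. The authors deposited 1 table of read counts per library, with HTSeq named in the sample titles; for the aligner, build, HTSeq version and strand mode, "not given in the sources used here" applies. All 55536 identifiers matched GENCODE M21 (GRCm38), which supplied symbols, positions and exon lengths. HTSeq's summary lines, 27.4% to 31.2% of listed reads, were left out. Counts were tested in R 4.3.3 with edgeR 4.0.16 (filterByExpr with minimum count 10 and minimum total 15, TMM factors of 0.967 to 1.05, quasi-likelihood test, no covariate), and 15589 genes with 99.9% of counts were tested. SE is the absolute log2 fold change over the square root of F, and 95% intervals use the test's degrees of freedom. The procedure was tested on simulated counts. Alternatives used DESeq2 1.42.0, limma 3.58.1, other scalings, other filters and left-out libraries. Replicates differed beyond sampling noise (lowest chi-square per df 16.9). Members and lists were chosen with earlier results of these data known. Named were all 32 members, with library values for the called member and the 5 next by adjusted p, and at most 4 called genes per other list; library values of further members (F7, F10, F2, F5, the fibrinogen genes, Adamts13 and Plg) and the ratios were chosen after the values were seen. Results for 1 further transcription factor gene and 1 motif are not reported here.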

Additional observations from a re-analysis of the deposited data

How the results depend on the processing

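No member rose under any of the 15 alternatives. The count of members that fell was 2 with no filter on low counts, 2 in DESeq2 and 0 with CREBH-KO 1 alone against WT, and it ranged from 1 to 2 with 1 library left out; the second member was Hrg in each case. The number of all genes changed was 2456 with no filter, 228 with CREBH-KO 1 alone, and 658 to 1806 with 1 library left out (658 without WT 2, 838 without CREBH-KO 2 and 778 without CREBH-KO 3). Leaving out libraries also lowers the number of samples. The log2 fold change of Proz ranged from -0.59 to -0.46 over the 15 alternatives. Scaling by library size alone moved the median of all genes from 0.025 to 0.098 and that of the members to 0.095.

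Signs differed from those reported for 14 members that passed in no setting. With library size alone F10 was at 0.015, F12 at 0.035, F9 at 0.0024 and Plg at 0.010. With RLE factors Proc was at -0.00091. With no filter Proc was at -0.015 and Procr at -0.0030, and in DESeq2 at -0.0073 and -0.0015. Against CREBH-KO 1 alone F11 was at 0.073, F9 at 0.014, Thbd at -0.27 and Vkorc1 at -0.24. With 1 library left out, the log2 values ranged from -0.22 to 0.33 for F3, from -0.14 to 0.044 for F12, from -0.030 to 0.15 for Kng2, from -0.21 to 0.048 for F11, from -0.19 to 0.42 for Vwf, from -0.025 to 0.044 for Proc, from -0.33 to 0.22 for Procr, from -0.23 to 0.18 for Thbd, from -0.037 to 0.28 for Tfpi, from -0.059 to 0.22 for Vkorc1 and from -0.033 to 0.092 for Cpb2. The cause was not tested. No paired analysis was possible because the labels give no replicate number that the genotypes share. Counts of under 10 CPM limit what can be seen for F3, F8, Vwf, Thbd, Procr, Tfpi, Adamts13, Vkorc1, Plau, Plat and F13a1.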
